A study of Mus musculus with 8 samples.

Results

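The genes described are members of the 4 *Hox* clusters, selected by name as probes whose RefSeq accession belongs to 1 of 38 listed mouse *Hox* genes, out of 19751 genes named on the array. All 38 had a probe, and 26 could be tested. The data are 8 one-colour Agilent arrays of VV3 ESCs, a male mouse ESC line with a *Vasa*::Venus reporter, kept in serum and LIF on STO fibroblasts inactivated with mitomycin C. In 4 samples the cells had received siRNA against *L3mbtl2* (*L3mbtl2*-KD ESCs), and in the other 4 the non-silencing AllStars siRNA (control ESCs). By the methods, RNA came from FACS-purified *Vasa*-positive cells after knockdown, and it is not stated for the arrays how control cells were gated. L3MBTL2 is a subunit of a variant Polycomb complex, so the comparison describes a classical set of Polycomb target genes after its knockdown. Effects of the knockdown and of the sorting were not separated. Signals are given as log2 of the spot intensity minus the 75th percentile of that array, so 0 is the level that 75% of the spots do not exceed. That percentile lay between 791 and 1038 intensity units, and 59.5 to 66.6% of the spots on an array were well above background.

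*Hox* genes encode homeodomain transcription factors that give cells their position along the head-to-tail axis. They lie in clusters A to D, and their order on the chromosome follows the order in which they are used: low-numbered (anterior) genes early and towards the head, high-numbered (posterior) genes late and towards the tail. In ESCs Polycomb complexes keep most of them silent or low, Trithorax-type proteins oppose this, and retinoic acid is the textbook inducer of the anterior genes. Fibroblasts differ, since they keep the *Hox* code of the body site from which they came. Many HOX proteins bind DNA together with the TALE homeodomain proteins of the PBX, MEIS and PKNOX families.

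The start regions of the *Hox* genes that passed the test, where RefSeq gives one, are shown with that of *Hoxc4*. *Hoxc4* was the only *HoxC* gene with a window, and it did not pass the test. The *HoxC* genes that passed, *Hoxc5*, *Hoxc6* and *Hoxc9*, had no window. RefSeq promoter windows (GRCm38.p6, 300 bases, from 250 before the start to 50 after it) were matched for 22 of the 38 genes, with 24 windows in all. Each is written 5′ to 3′ on the strand of the gene, and capitals mark a match to 1 of 5 motifs searched on both strands. The motifs were the E-box CACGTG, the E2F motif GCGGGAA, the T-box motif AGGTGTGA, the MEIS motif TGACAG and the PBX-HOX motif TGATNNAT. The positions are chr15:103034145-103034444 (plus strand) for *Hoxc4*, chr6:52164782-52165081 (minus strand) for *Hoxa2*, chr6:52213018-52213317 (minus strand) for *Hoxa3*, chr6:52218524-52218823 (minus strand) for *Hoxa7* and chr6:52245761-52246060 (minus strand) for *Hoxa11*.
Hoxc4: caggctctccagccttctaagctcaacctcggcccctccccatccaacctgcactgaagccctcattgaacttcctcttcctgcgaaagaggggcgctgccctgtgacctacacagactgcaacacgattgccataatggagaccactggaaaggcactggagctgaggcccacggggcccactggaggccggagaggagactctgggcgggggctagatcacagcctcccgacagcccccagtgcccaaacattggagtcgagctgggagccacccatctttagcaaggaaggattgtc
Hoxa2: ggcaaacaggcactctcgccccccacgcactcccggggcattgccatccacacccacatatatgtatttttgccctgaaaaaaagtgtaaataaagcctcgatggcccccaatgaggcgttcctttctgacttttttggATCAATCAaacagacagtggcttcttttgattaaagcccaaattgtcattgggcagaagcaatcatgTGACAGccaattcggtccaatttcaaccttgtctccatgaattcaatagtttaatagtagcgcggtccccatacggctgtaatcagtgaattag
Hoxa3: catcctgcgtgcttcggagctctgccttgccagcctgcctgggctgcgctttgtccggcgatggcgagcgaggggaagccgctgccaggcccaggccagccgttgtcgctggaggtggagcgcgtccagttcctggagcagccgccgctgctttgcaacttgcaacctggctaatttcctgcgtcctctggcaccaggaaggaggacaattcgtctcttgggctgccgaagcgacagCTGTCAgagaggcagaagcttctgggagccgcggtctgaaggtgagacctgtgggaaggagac
Hoxa7: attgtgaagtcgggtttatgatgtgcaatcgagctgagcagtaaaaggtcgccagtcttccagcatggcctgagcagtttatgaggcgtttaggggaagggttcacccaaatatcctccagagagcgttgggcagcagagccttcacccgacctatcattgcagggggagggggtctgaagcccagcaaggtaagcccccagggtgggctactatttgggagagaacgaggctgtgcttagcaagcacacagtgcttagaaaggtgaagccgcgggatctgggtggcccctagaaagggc
Hoxa11: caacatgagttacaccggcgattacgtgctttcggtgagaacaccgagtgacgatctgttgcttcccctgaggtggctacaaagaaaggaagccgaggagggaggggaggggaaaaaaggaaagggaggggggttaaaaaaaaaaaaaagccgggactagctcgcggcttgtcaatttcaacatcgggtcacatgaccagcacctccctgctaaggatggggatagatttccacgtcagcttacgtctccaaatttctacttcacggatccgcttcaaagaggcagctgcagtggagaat

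The *Hoxa2* window held a MEIS and a PBX-HOX match and the *Hoxa3* window a MEIS match. The letters of none of the 5 motifs occurred in the windows of *Hoxc4*, *Hoxa7* and *Hoxa11*. By its position, the window listed for *Hoxa3* lies between those of *Hoxa6* (chr6:52208623-52208922) and *Hoxa7*, so it is a start among other genes of the cluster. Over all 24 *Hox* windows, the MEIS motif was in 2 (19.2% of 32851 promoter windows of the same length) and the PBX-HOX motif in 4 (8.85% of all windows), those of *Hoxa2*, *Hoxb1*, *Hoxb8* and *Hoxd11*. The E-box, which MAX dimers bind, was in 5 *Hox* windows against 7.15% of all windows, and those 5 belonged to *HoxD* genes (*Hoxd1*, *Hoxd4*, *Hoxd10*, *Hoxd11* and *Hoxd13*). The T-box motif was in 1, that of *Hoxd9* (1.28% of all windows), and the E2F motif in 0 (4.60% of all windows). The median window of the *Hox* genes held 14.5 CpG dinucleotides and 57.7% G and C, against 7 and 52.7% over all windows. A match describes the letters of a window and shows no bound site. *HoxB* had windows only for *Hoxb1*, *Hoxb4* and *Hoxb8*, and *HoxC* only for *Hoxc4*. The counts of motifs therefore say little about these clusters.

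The siRNA target was measured first, as a check of the labels. *L3mbtl2* lay at 0.27, -0.18, -0.21 and -0.31 in control replicates 1 to 4 and at -1.45, -1.26, -1.58 and -1.73 in *L3mbtl2*-KD replicates 1 to 4. It fell in all 4 *L3mbtl2*-KD samples below every control (log2 fold change -1.40 with a standard error of 0.15; limma, adjusted p = 0.000945, the adjustment being that of Benjamini and Hochberg across the tested probes).

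The largest falls of *Hox* genes were in the *HoxC* cluster. The counts of *Hox* genes with a higher signal lay near the shares over all genes, given below. A call needs a probe whose change exceeds 2-fold at an adjusted p below 0.05. *Hoxc5*, *Hoxc6* and *Hoxc9* were called lower, 3 of 26 tested, where 3.21% of all 13653 tested genes were. *Hoxb13* was called higher, 1 of 26, where 2.49% of all tested genes were. Without the demand for 2-fold, 5 *Hox* genes passed with a lower signal (10.8% of all genes) and 3 with a higher one (9.35% of all genes): *Hoxa2* and *Hoxa3* besides the 3 *HoxC* genes, and *Hoxa7* and *Hoxa11* besides *Hoxb13*. The *L3mbtl2*-KD samples lay below all controls for 5 tested *Hox* genes (13.8% of all genes) and above them for 2 (1727 of 13653 genes). The median log2 fold change of the 26 was -0.34, with 18 lower and 8 higher, against -0.01 over all tested genes (7046 lower and 6607 higher). Under normexp background correction and under quantile normalization 16 were lower and 10 higher, because *Hoxa9* and *Hoxc13*, both close to 0, changed sign. The median of the *Hox* genes was then -0.19 and -0.22. Of the 26 genes, 22 were well above background on all 8 arrays. The other 4, *Hoxc5*, *Hoxc6*, *Hoxd4* and *Hoxa11*, entered the test through the group in which they were brighter. Among the 22 alone, *Hoxc9* was the 1 gene called lower, where 290 of 12960 genes were under that filter.

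**Figure D1:**
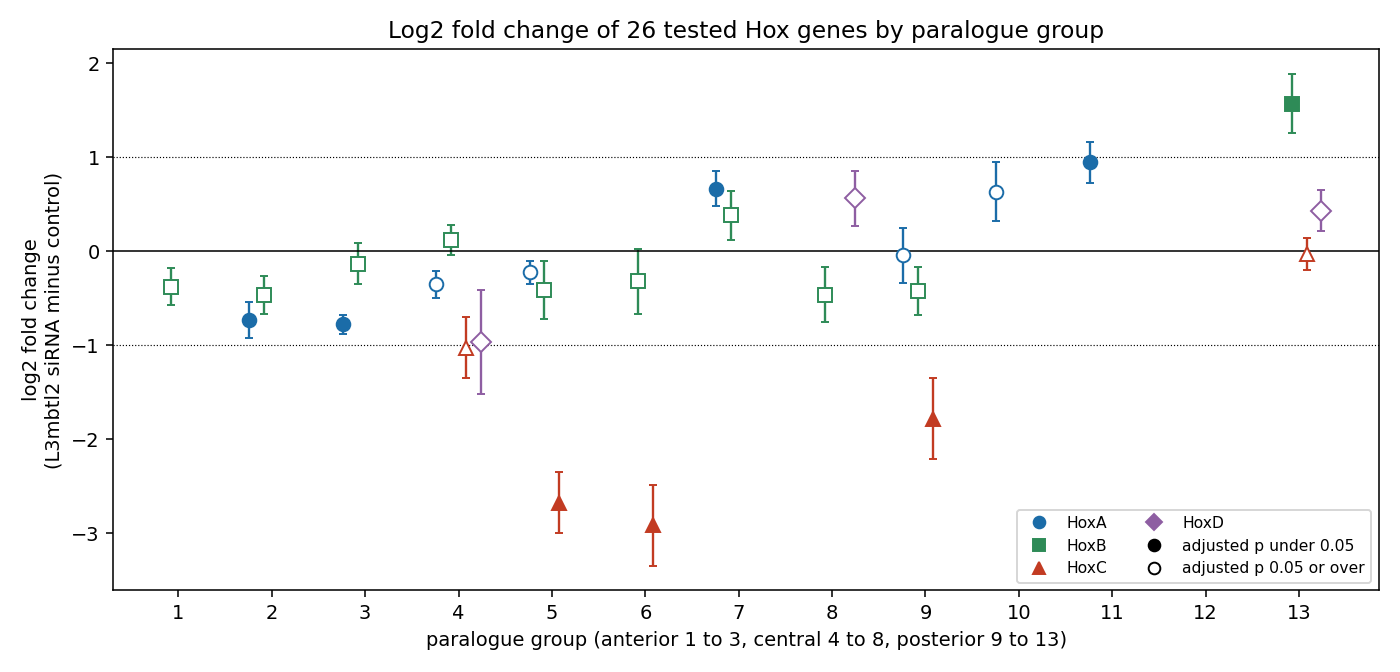
Log2 fold change (*L3mbtl2*-KD minus control, y axis) with its standard error for the 26 tested *Hox* genes, by paralogue group (x axis); colour and shape give the cluster, filled symbols have a limma adjusted p under 0.05 and dotted lines mark 2-fold. *Hoxc5* (-2.67), *Hoxc6* (-2.92) and *Hoxc9* (-1.78) lie lowest and *Hoxb13* (1.57) highest; the position of *Hoxc5* is the fitted value, for which only a bound holds.

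In the *HoxC* cluster 5 of 9 genes could be tested, and all 5 had a lower mean in *L3mbtl2*-KD ESCs, with a median log2 fold change of -1.78, or -1.14 with *Hoxc5* at the bound given below. With normexp 4 were lower and 1 higher, with a median of -0.80. *Hoxc6*, a central gene of the thoracic region, lay at -3.32, -2.16, -2.24 and -1.39 in control replicates 1 to 4 and at -5.69, -4.50, -4.83 and -5.76 in *L3mbtl2*-KD replicates 1 to 4. The groups did not overlap, and replicate 1 was the lowest of the controls. *Hoxc6* fell by 2.92 on the log2 scale (standard error 0.43, adjusted p = 0.00331, limma), although only 2 of the 4 *L3mbtl2*-KD arrays measured it well above background. With the other 2 raised to the lowest signal above background, the value was -2.77. In bulk RNA such as this, fewer cells that carry a transcript and less of it per cell cannot be told apart. *Hoxc5*, its neighbour, lay at -5.38, -3.87, -4.19 and -3.92 in the controls and at -6.67, -7.35, -6.91 and -7.11 after knockdown. None of the *L3mbtl2*-KD arrays was well above background, so *Hoxc5* was at least 2.21-fold lower (adjusted p = 0.00151, limma). The bound sets the control mean against, per array, the lowest signal well above background or the signal of the probe itself, whichever is higher.

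*Hoxc9*, a posterior gene next to the thoracic ones, was measured well above background on all 8 arrays. Its signal was -3.47, -2.06, -2.51 and -1.29 in the controls and -4.52, -3.86, -3.59 and -4.48 in *L3mbtl2*-KD ESCs, with the lowest control only 0.12 above the highest *L3mbtl2*-KD sample. The fall was 1.78 on the log2 scale (3.44-fold, standard error 0.43, adjusted p = 0.0242, limma). *Hoxc4*, the most anterior gene of the cluster, lay at -2.46, -1.25, -1.31 and -1.21 in the controls and at -3.18, -2.26, -2.21 and -2.68 in *L3mbtl2*-KD ESCs. Here control replicate 1 overlapped the *L3mbtl2*-KD samples, and the log2 fold change of -1.03 (standard error 0.32) missed the threshold (adjusted p = 0.0594). With the replicate number as a block *Hoxc4* was called lower as well (adjusted p = 0.0051), and so it was with the slide as a block (adjusted p = 0.0466) and without control replicate 1 (log2 fold change -1.33, adjusted p = 0.00943). *Hoxc13*, at the other end of the cluster and known from hair and nail, lay at -3.73, -3.72, -3.55 and -4.28 in the controls and at -4.09, -3.67, -3.70 and -3.91 in *L3mbtl2*-KD ESCs (log2 fold change -0.03, adjusted p = 0.934). Its sign turned under normexp (0.06) and quantile normalization (0.12).

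For *Hoxc5*, *Hoxc6* and *Hoxc9* the two-sided exact permutation test over the 8 arrays gave p = 0.0286, the smallest p that 4 against 4 arrays allow. With swaps only between arrays of equal replicate number, the smallest p is 0.125, which all 3 reached. Groups without overlap always give these values, and the 3 genes were picked for their calls, so the permutation tests add no separate support. *Hoxc5* and *Hoxc6* also entered the test through the controls. Both slides held 2 arrays of each group. *Hoxc4*, *Hoxc6* and *Hoxc9* had log2 fold changes of -0.86, -2.35 and -1.43 on slide 1 and of -1.19, -3.49 and -2.14 on slide 2. *Hoxc9* lost its call without a background filter (adjusted p = 0.0591), in a one-way test with the same adjustment (0.069) and when 1 of 4 samples was left out, with an adjusted p of 0.0592 without *L3mbtl2*-KD replicate 1, 0.0672 without *L3mbtl2*-KD replicate 4, 0.061 without control replicate 2 and 0.0565 without control replicate 3. It was not called on either slide alone. Normexp background correction adds an offset, which shrinks changes of dim probes, and it was run here on median spot signals. The effects of these choices were not separated. With normexp the log2 fold change was -1.41 for *Hoxc6* and -0.99 for *Hoxc9*, and *Hoxc5* and *Hoxc9* were then under 2-fold.

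The remaining *HoxC* genes, *Hoxc8*, *Hoxc10*, *Hoxc11* and *Hoxc12*, were not tested. *Hoxc8* and *Hoxc11* were well above background on 0 arrays, though *Hoxc6* and *Hoxc9*, which flank *Hoxc8*, were measured on all controls. *Hoxc10*, a gene of the lumbar region, was above background on 2 control arrays and 0 *L3mbtl2*-KD arrays, with -6.29, -7.71, -3.44 and -5.12 in the controls. *Hoxc12* was above background on 1 array of each group, and its signal of -1.69 in *L3mbtl2*-KD replicate 1 stood far above the -5.33, -6.46 and -5.84 of the other 3. Of the genes that flank the *Hox* clusters, pooled over all clusters, 11 were tested and 0 called by limma (4 at an unadjusted p under 0.05, 0 of them over 2-fold). Their median log2 fold change was -0.15. Of the 11, 3 passed the adjusted threshold under 2-fold, each with a lower signal, where 10.8% of all tested genes passed with a lower signal.

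Markers of fibroblasts, the feeder cell type, moved with the *HoxC* genes. Of 23 such markers 17 were tested, and 9 were called lower and 0 higher (5 lower with normexp): *Col1a1*, *Col1a2*, *Col3a1*, *Col6a1* and *Dcn* of the matrix, *Acta2* of the contractile apparatus, the receptors *Pdgfra* and *Pdgfrb*, and *Twist2*. The log2 fold changes were -2.22 for *Col1a1*, -2.81 for *Col1a2*, -1.61 for *Col6a1*, -2.72 for *Acta2*, -1.50 for *Pdgfra*, -1.57 for *Pdgfrb* and -1.45 for *Twist2*. *Col6a1* passed narrowly with overlapping groups (adjusted p = 0.0467). Its call was lost with normexp (0.0672), quantile normalization (0.0656), no filter (0.103), the one-way test with the same adjustment (0.109) and 6 of the 8 samples left out. The median log2 fold change of the 17 was -1.45. Summed over the 23 markers, the signal relative to the 75th percentile of the array was 17.31, 23.87, 24.89 and 29.11 in control replicates 1 to 4 and 12.14, 10.69, 13.55 and 13.86 in *L3mbtl2*-KD replicates 1 to 4. *Vim*, an intermediate filament gene that ESCs express too, was the brightest, and without it the sums were 6.30, 14.06, 12.47 and 15.74 in the controls and 5.41, 5.61, 6.17 and 6.03 after knockdown. Without *Tagln*, the next brightest, which was not called, they were 2.99, 6.38, 5.24 and 7.54 in the controls and 1.422, 1.856, 1.690 and 1.502 after knockdown. The median log2 signal of the 17 markers was -2.39, -1.76, -2.34 and -1.50 in the controls and -3.58, -3.30, -3.54 and -3.44 after knockdown. Control replicate 1, the lowest control for *Hoxc4*, *Hoxc5*, *Hoxc6* and *Hoxc9*, was the lowest control for 13 of the 17 markers, and its median lay close to that of control replicate 3. This trait was not particular to fibroblast markers. Control replicate 1 was also lowest for 7 of 9 TALE genes and 7 of 12 neural and mesoderm markers. The counts were 5 of 16 for retinoic acid signalling, 7 of 23 for Polycomb genes and 2 of 13 for pluripotency genes. *Dcn* lay at -2.39, -1.76, -1.73 and -1.34 in the controls and at -5.31, -6.05, -5.82 and -7.07 in *L3mbtl2*-KD ESCs, where it was not well above background on any array, and was at least 12.1-fold lower (adjusted p = 0.000369, limma). *Col3a1*, also not above background after knockdown, was at least 7.82-fold lower (adjusted p = 0.0012). *Col5a2*, *Lum*, *Postn*, *Fap*, *Prrx1* and *Tbx5* were above background on 0 arrays of either group. By the methods, cells after knockdown were sorted for the *Vasa* reporter, and the gate of the control cells is not stated. The part of fibroblast RNA in the *HoxC* result was not tested. Without control replicate 1, *Hoxc6* and *Hoxc9* had log2 fold changes of -3.27 and -2.16, and 4 *Hox* genes were called lower (*Hoxc4* added) and 2 higher (*Hoxa11* added).

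**Figure D2:**
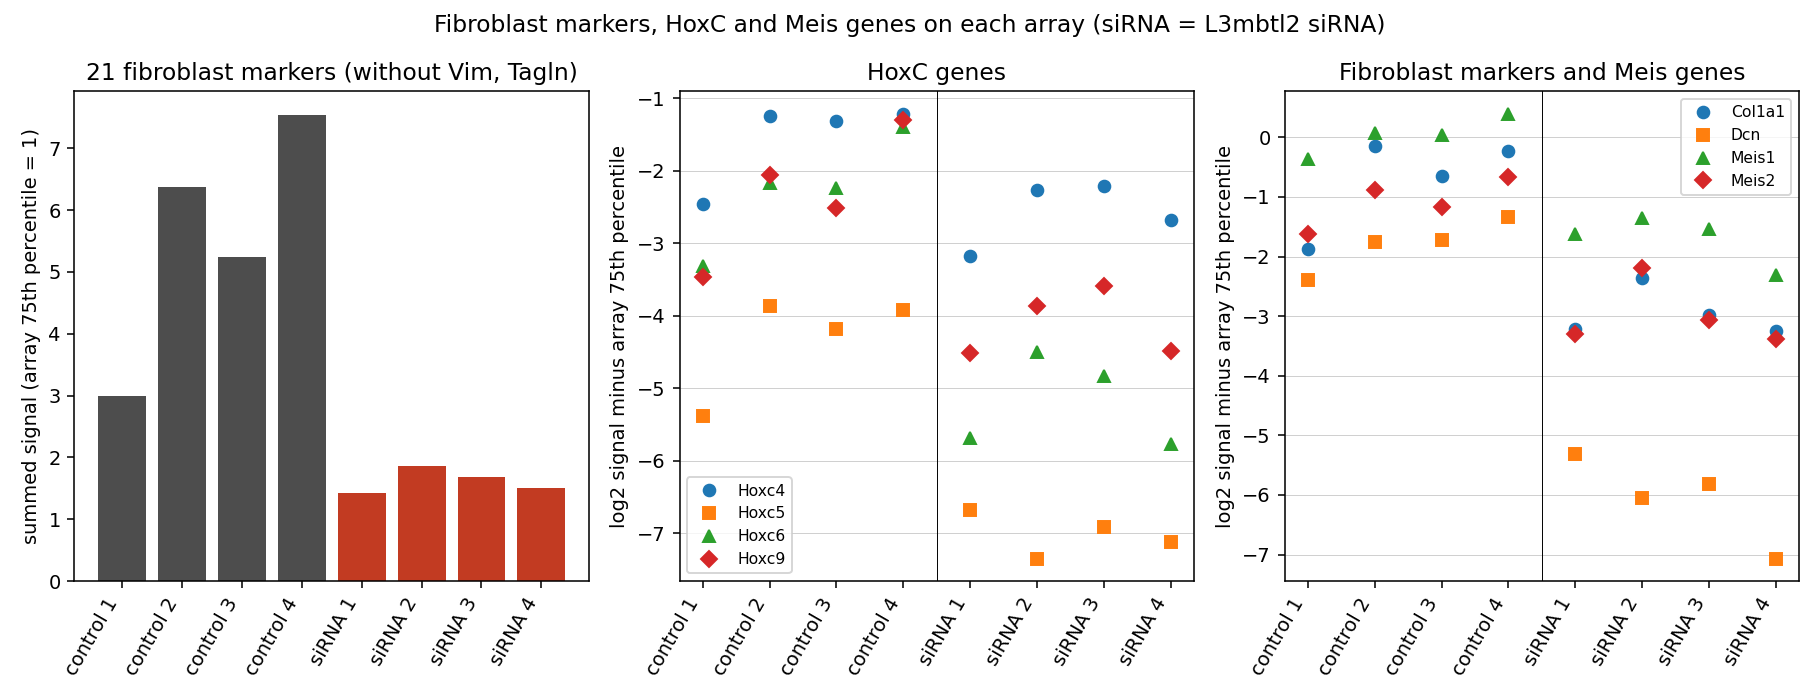
Left, summed signal of 21 fibroblast markers (without *Vim* and *Tagln*, the brightest 2) on each array, in units of the 75th percentile of that array; middle and right, log2 signal minus the 75th percentile (y axis) of 4 *HoxC* genes and of *Col1a1*, *Dcn*, *Meis1* and *Meis2* on each of the 8 arrays. Control replicate 1 has a summed marker signal of 2.99, between the other controls (5.24 to 7.54) and the *L3mbtl2*-KD arrays (1.42 to 1.86), and is the lowest control for all 4 *HoxC* genes shown.

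In the *HoxA* cluster 8 of 10 genes were tested, and none was called at 2-fold, while 4 passed the adjusted threshold. *Hoxa3*, which patterns the pharyngeal arches, had the smallest spread among them. It lay at -0.38, -0.59, -0.64 and -0.30 in the controls and at -1.28, -1.19, -1.20 and -1.35 in *L3mbtl2*-KD ESCs. The groups were apart, and the fall was 1.71-fold (log2 fold change -0.78 with an error of 0.10; limma, adjusted p = 0.00195). *Hoxa2*, a gene of the hindbrain and second arch, lay at -3.27, -3.41, -3.74 and -3.54 in the controls and at -4.23, -3.76, -4.69 and -4.19 in *L3mbtl2*-KD ESCs. It was also lower without overlap (log2 fold change -0.73, standard error 0.19, adjusted p = 0.0329), but only by 0.02 between the nearest samples. Its adjusted p was 0.05 or more in 10 of 19 alternatives, and normexp gave -0.27 (adjusted p = 0.208).

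The tested *HoxA* genes with a higher mean were *Hoxa7*, *Hoxa10* and *Hoxa11*. *Hoxa7*, at -0.61, -1.21, -1.32 and -0.98 in the controls and -0.18, -0.69, -0.50 and -0.09 in *L3mbtl2*-KD ESCs, passed (log2 fold change 0.67, adjusted p = 0.0406; standard error 0.19), and 1 control overlapped 1 *L3mbtl2*-KD sample. The threshold was missed in 8 of 19 alternatives. *Hoxa11*, a gene of the forearm and the reproductive tract, lay at -4.91, -4.92, -5.78 and -4.78 in the controls and at -4.20, -4.22, -4.34 and -3.85 in *L3mbtl2*-KD ESCs. All 4 *L3mbtl2*-KD samples were above all controls (log2 fold change 0.95, standard error 0.22, adjusted p = 0.0216), and control replicate 3 was not well above background. This probe had 10 spots per array, and their standard deviation within an array was 0.16 to 0.43. Quantile normalization put *Hoxa11* past 2-fold (log2 fold change 1.12, adjusted p = 0.0102), as did leaving out control replicate 1, 2 or 4 or *L3mbtl2*-KD replicate 3 (up to 1.05). *Hoxa11* missed the threshold without *L3mbtl2*-KD replicate 4 (adjusted p = 0.0597), without a background filter (0.0541) and in the one-way test with the same adjustment (0.0585), and normexp gave 0.41. *Hoxa11os*, the antisense transcript of the locus and the only 1 of 10 listed noncoding RNAs with a named probe, had a log2 fold change of 0.36 (adjusted p = 0.133). *Hoxa10*, the neighbour of *Hoxa11*, lay at -3.49, -3.08, -4.51 and -3.14 in the controls and at -2.91, -3.12, -3.16 and -2.49 after knockdown (0.63, adjusted p = 0.193).

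Between these, *Hoxa4* lay at -3.79, -4.07, -3.76 and -3.48 in the controls and at -4.17, -4.31, -4.16 and -3.87 in *L3mbtl2*-KD ESCs. In the fit without a block it missed the threshold (log2 fold change -0.35, adjusted p = 0.125), and with the replicate block it passed (adjusted p = 0.00661). *Hoxa5*, a lung and thoracic gene, lay at -2.79, -3.20, -3.34 and -3.04 in the controls and at -3.25, -3.42, -3.29 and -3.32 in *L3mbtl2*-KD ESCs (-0.22, adjusted p = 0.239). *Hoxa9*, best known from leukaemia, had 2 probes, neither called. The brighter one lay at -3.81, -4.07 and -3.92 in control replicates 1, 3 and 4, the value of replicate 2 being dropped as an outlier spot, and at -4.18, -4.66, -3.33 and -3.73 after knockdown (-0.04, adjusted p = 0.935). Its sign turned under normexp, quantile normalization and either block; the replicate block gave 0.18. The authors' log2 table, which keeps replicate 2, gave -0.53, and the dimmer probe gave -0.46 (adjusted p = 0.109). *Hoxa6* was above background on 3 control arrays and 1 *L3mbtl2*-KD array and *Hoxa13* on 0, so neither was tested.

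**Figure D3:**
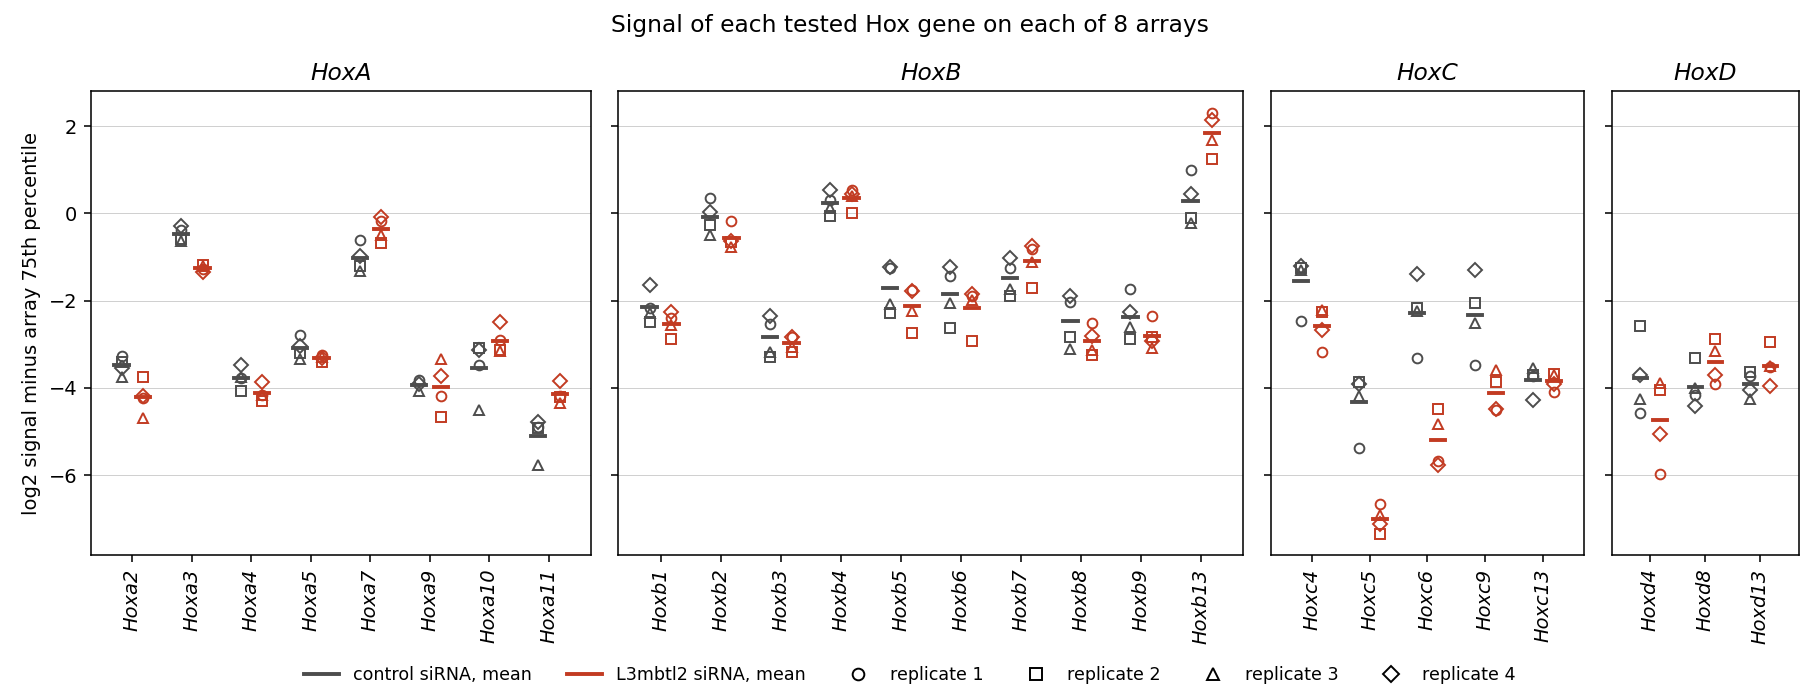
Log2 signal minus the 75th percentile of the array (y axis) of each tested *Hox* gene (x axis) in control (grey) and *L3mbtl2*-KD ESCs (red); each symbol is 1 array, with the shape giving the replicate number, and bars are group means. Probes differ in brightness, so heights are to be compared within a gene; the groups are apart for *Hoxa2*, *Hoxa3*, *Hoxa11*, *Hoxb13*, *Hoxc5*, *Hoxc6* and *Hoxc9*.

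The *HoxB* cluster was the 1 in which all genes, 10 of 10, were well above background on all arrays. *Hoxb13*, the most posterior gene and separated from the others by a long gap, lay at 0.98, -0.11, -0.23 and 0.45 in the controls and at 2.31, 1.26, 1.68 and 2.14 in *L3mbtl2*-KD ESCs. Known from the prostate and the tail end of the spinal cord, it rose 2.97-fold (log2 fold change 1.57, standard error 0.31, adjusted p = 0.0116, limma; two-sided exact permutation p = 0.0286, or 0.125 with swaps within replicate numbers). As for the *HoxC* genes, the permutation values follow from groups without overlap. The 2 slides gave 1.35 and 1.80 for *Hoxb13*. Leaving out 1 sample moved it no further than 1.40 and 1.81, and the adjusted p was 0.00145 with the replicate block.

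None of the other 9 *HoxB* genes passed without a block. *Hoxb1*, the gene of hindbrain segment 4, lay at -2.18, -2.50, -2.28 and -1.65 in the controls and at -2.41, -2.88, -2.56 and -2.27 in *L3mbtl2*-KD ESCs (log2 fold change -0.38, adjusted p = 0.227). Its probe had 10 spots per array with a standard deviation of 0.05 to 0.17 within an array, which covers technical noise only. Between samples it was 0.36 among the controls and 0.26 among *L3mbtl2*-KD ESCs. *Hoxb2* lay at 0.35, -0.27, -0.50 and 0.04 in the controls and at -0.18, -0.65, -0.77 and -0.64 in *L3mbtl2*-KD ESCs (-0.47, adjusted p = 0.143). *Hoxb3* (-0.13, adjusted p = 0.716) lay at -2.55, -3.30, -3.18 and -2.35 in the controls and at -2.83, -3.18, -3.07 and -2.83 after knockdown, and its dimmer probe had the opposite sign (0.18). *Hoxb4*, used to expand blood stem cells, lay at 0.29, -0.06, 0.13 and 0.54 in the controls and at 0.54, 0.00, 0.39 and 0.44 in *L3mbtl2*-KD ESCs, with the groups overlapping (0.12, adjusted p = 0.658).

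Among the central and posterior genes, *Hoxb5* lay at -1.27, -2.29, -2.08 and -1.22 in the controls and at -1.76, -2.74, -2.23 and -1.79 in *L3mbtl2*-KD ESCs (-0.42, adjusted p = 0.386). *Hoxb6* lay at -1.45, -2.63, -2.07 and -1.24 in the controls and at -1.90, -2.93, -1.99 and -1.85 after knockdown (-0.32, adjusted p = 0.563). *Hoxb7* was the 1 central *HoxB* gene besides *Hoxb4* with a higher mean, at -1.26, -1.90, -1.74 and -1.02 against -0.81, -1.71, -1.12 and -0.75 (0.38, adjusted p = 0.347). In each of these, replicates 2 and 3 were the low controls and replicate 2 the lowest *L3mbtl2*-KD sample. *Hoxb8* lay at -2.03, -2.83, -3.12 and -1.89 in the controls and at -2.51, -3.25, -3.14 and -2.81 in *L3mbtl2*-KD ESCs (-0.46, adjusted p = 0.315). *Hoxb9* lay at -1.75, -2.89, -2.62 and -2.27 in the controls and at -2.35, -2.85, -3.08 and -2.94 in *L3mbtl2*-KD ESCs (-0.42, adjusted p = 0.286).

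The *HoxB* genes varied together between samples. In control replicate 4 and *L3mbtl2*-KD replicate 1 all 10 lay above their group mean, and in control replicates 2 and 3 and *L3mbtl2*-KD replicate 2 all 10 lay below it. Control replicate 1 had 9 of 10 above. The median deviation of the 10 genes was 0.42, -0.40, -0.30 and 0.47 in control replicates 1 to 4 and 0.33, -0.35, -0.10 and 0.20 in *L3mbtl2*-KD replicates 1 to 4. Over all 13653 tested genes the median deviation was between -0.01 and 0.02 on every array, and 46.9 to 55.3% of the genes lay above their group mean. The *HoxC* genes had another order, with 4 of 5 below the group mean in control replicate 1, at a median deviation of -1.04. With the replicate number as a block, which takes up this shared variation, *Hoxb1* (adjusted p = 0.0193), *Hoxb2* (0.0107), *Hoxb5* (0.015) and *Hoxb7* (0.0217) passed the adjusted threshold, each under 2-fold. In that fit 15 of 26 *Hox* genes passed in place of 8, and over all genes 46.0% did in place of 20.1%.

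**Figure D4:**
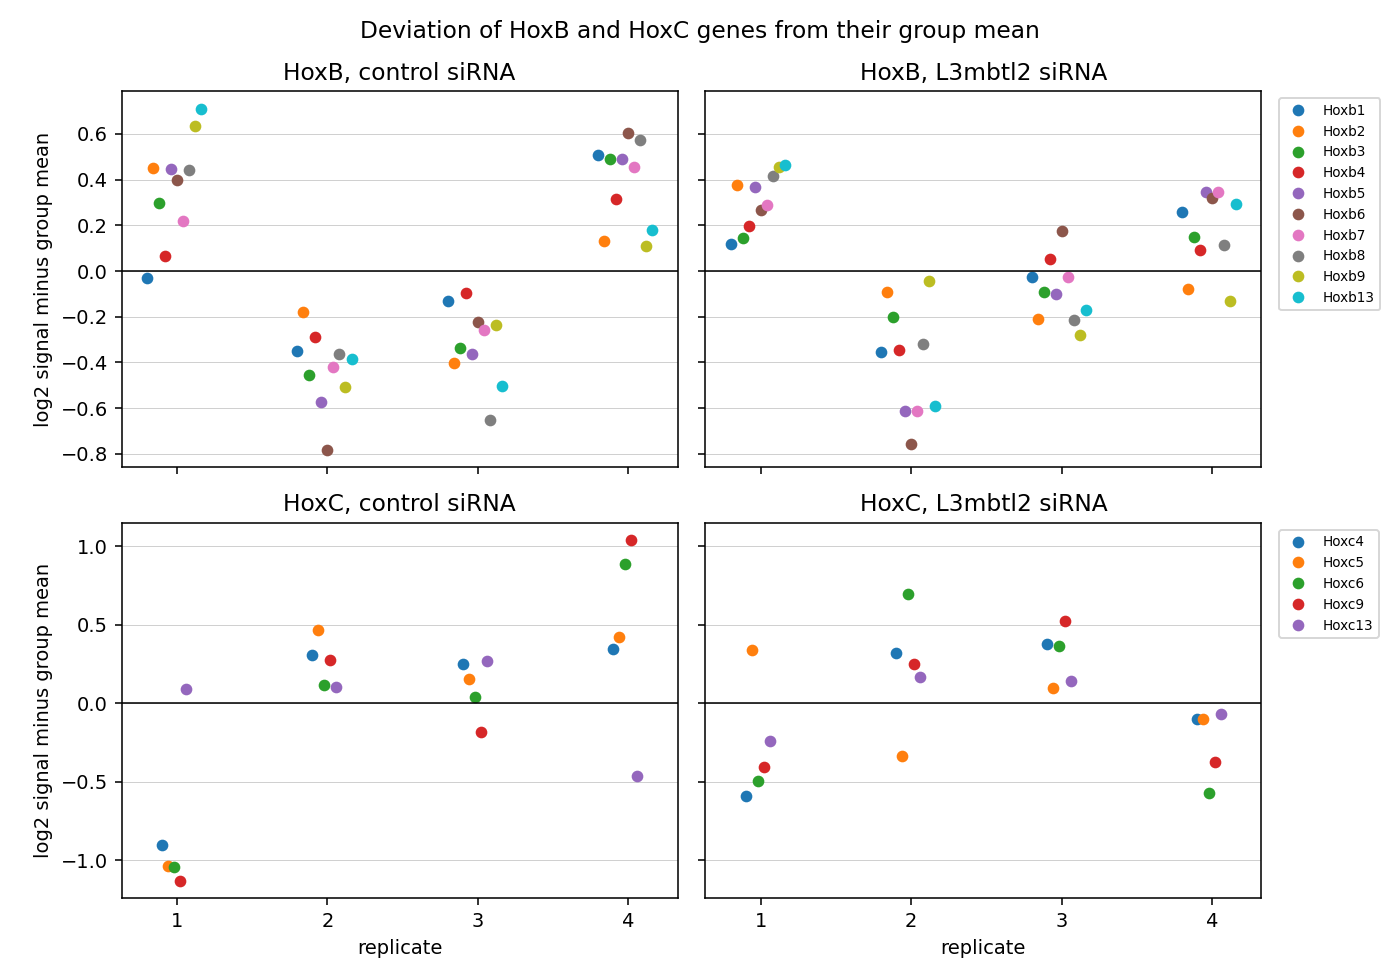
Log2 signal minus the mean of its group (y axis) for 10 *HoxB* genes (top) and 5 tested *HoxC* genes (bottom) in each replicate (x axis) of control ESCs (left) and *L3mbtl2*-KD ESCs (right). All 10 *HoxB* genes lie below 0 in control replicates 2 and 3 and in *L3mbtl2*-KD replicate 2, whereas *Hoxc4*, *Hoxc5*, *Hoxc6* and *Hoxc9* lie lowest in control replicate 1.

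In the *HoxD* cluster, which patterns the limbs and the trunk, 3 of 9 genes were tested and none passed. *Hoxd4* lay at -4.59, -2.58, -4.25 and -3.71 in the controls and at -5.98, -4.05, -3.88 and -5.06 in *L3mbtl2*-KD ESCs, with 2 of the latter above background (log2 fold change -0.96, standard error 0.55, adjusted p = 0.263). *Hoxd8* lay at -4.17, -3.31, -4.01 and -4.42 in the controls and at -3.91, -2.88, -3.17 and -3.71 in *L3mbtl2*-KD ESCs (0.56, adjusted p = 0.213). *Hoxd13*, the gene of the digits, lay at -3.73, -3.65, -4.25 and -4.05 in the controls and at -3.53, -2.96, -3.51 and -3.97 in *L3mbtl2*-KD ESCs (0.43, adjusted p = 0.209). Of these, *Hoxd8* passed with the replicate block (adjusted p = 0.0151). Replicate 2 was the highest sample of its group for *Hoxd8* and *Hoxd13* in both groups.

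*Hoxd1* was well above background on 3 arrays of each group and so was not tested. Its signal was -4.76, -4.39, -5.45 and -4.51 in the controls and -3.78, -3.35, -3.32 and -4.71 in *L3mbtl2*-KD ESCs. Without *L3mbtl2*-KD replicate 4, the low one, it entered the test and was called higher. *Hoxd1* passed the filter there only because that low array was left out. With all arrays kept and no background filter, *Hoxd1* was not called. *Hoxd9* was above background on 2 arrays of each group, *Hoxd10* on 1 control array and *Hoxd11* on 1 control and 2 *L3mbtl2*-KD arrays. Control replicate 2 was the brightest control for all 3 of these neighbours, at -3.00, -4.71 and -3.16, while the other controls lay between -5.87 and -5.18 for *Hoxd9*, between -7.45 and -6.32 for *Hoxd10* and between -6.48 and -5.52 for *Hoxd11*. *Hoxd3* and *Hoxd12* were above background on 0 arrays.

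By position along the clusters, all 5 tested anterior genes (paralogue groups 1 to 3) had a lower mean in *L3mbtl2*-KD ESCs, with a median log2 fold change of -0.47. *Hoxa2* and *Hoxa3* passed the threshold among them, and *Hoxb3* turned to 0.02 when the probes of a gene were averaged. Of 13 tested central genes (groups 4 to 8) 9 were lower and 4 higher (median -0.35), with *Hoxc5* and *Hoxc6* past the threshold on the lower side and *Hoxa7* on the higher. Of 8 tested posterior genes (groups 9 to 13) 4 were lower and 4 higher (median 0.20), with *Hoxc9* lower and *Hoxa11* and *Hoxb13* higher past it. With normexp or quantile normalization 2 posterior genes were lower and 6 higher. The difference between these classes was not tested.

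All 9 TALE partners of HOX proteins were tested, 8 with a lower mean and 1 with a higher one (median log2 fold change -0.45). *Meis1* and *Meis2* were called lower by limma. *Meis1* lay at -0.36, 0.07, 0.04 and 0.40 in the controls and at -1.62, -1.36, -1.54 and -2.31 in *L3mbtl2*-KD ESCs (log2 fold change -1.74, standard error 0.23, adjusted p = 0.00203). *Meis2* lay at -1.63, -0.89, -1.17 and -0.67 in the controls and at -3.31, -2.20, -3.06 and -3.38 in *L3mbtl2*-KD ESCs (-1.90, standard error 0.29, adjusted p = 0.00407). For both, the groups were apart and control replicate 1 was the lowest control, as for *Hoxc4*, *Hoxc5*, *Hoxc6*, *Hoxc9* and most fibroblast markers. Another 2 genes of this group passed under 2-fold, both with a lower signal.

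Retinoic acid signalling, the inducer of anterior *Hox* genes, had 16 of 18 genes tested, 4 called lower and 0 higher, with a median log2 fold change of -0.38 (9 lower, 7 higher). With normexp and in the one-way test with the same adjustment 2 of the 4 calls were left. *Dhrs3*, a retinaldehyde reductase, lay at 0.68, 0.85, 0.60 and 0.95 in the controls and at -0.32, -0.12, -0.39 and -0.44 in *L3mbtl2*-KD ESCs (-1.09, standard error 0.11, adjusted p = 0.000707). *Crabp1*, the cellular retinoic acid binding protein, fell by 1.29 (adjusted p = 0.0175) and *Cyp26b1*, which degrades retinoic acid, by 1.63 (adjusted p = 0.0167). Control replicate 1 was the lowest control for both, as for most fibroblast markers. The receptor gene *Rarb*, itself induced by retinoic acid, was called on its dimmer probe (adjusted p = 0.00815) and not on the brighter one (-0.86, adjusted p = 0.117). The dimmer probe was above background on 1 of 4 *L3mbtl2*-KD arrays, and with the others raised to the lowest signal above background its log2 fold change of -1.09 became -0.82, under 2-fold. A dimmer probe of 1 more gene passed with a higher signal under 2-fold (0.85, adjusted p = 0.00104). Of the 6 ParaHox and *Cdx* genes, upstream regulators of the trunk *Hox* genes among them, 3 were tested and 0 called by limma (0 at an unadjusted p under 0.05), with a median of -0.29.

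Among regulators of *Hox* chromatin few genes passed. Of 23 Polycomb genes, all tested, *L3mbtl2* itself was the 1 called lower (median log2 fold change -0.09), and 1 more passed with a higher signal under 2-fold. Of 12 tested Trithorax-type genes 0 were called by limma (2 at an unadjusted p under 0.05, 0 of them over 2-fold), 1 passed with a lower signal under 2-fold and the median was -0.01. All 13 pluripotency genes were well above background on all 8 arrays and 0 were called by limma (5 at an unadjusted p under 0.05, 1 of them over 2-fold), with a median of -0.23; 1 passed with a lower and 1 with a higher signal under 2-fold. Of 7 tested germ-line markers 6 were called higher by limma, with a median of 1.79: *Ddx4*, the gene of the reporter by which cells were sorted (log2 fold change 2.83), *Dazl* (1.61), *Stra8* (1.34), *Sycp1* (1.79), *Tex101* (8.21) and *Mael* (2.48). Of 12 tested neural and mesoderm markers 2 were called lower, the somite genes *Meox1* (-3.15, adjusted p = 0.00066) and *Pax3* (-1.23, adjusted p = 0.0187), each above background on 2 of 4 *L3mbtl2*-KD arrays, and the median was -0.21. Control replicate 1 was the lowest control for both, and the call of *Pax3* was lost with normexp (-0.40), in the one-way test (adjusted p = 0.0557) and without control replicate 3 (0.0575).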

How the data were processed

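Samples were hybridised singly, in one colour. The authors deposited spot intensity per array from Feature Extraction, background-subtracted and not normalized between arrays, and a log2 table, which correlated at 0.9995 or more with the log2 values used here, centred by probe. Control and outlier spots were dropped and spots of a probe averaged. Of 39429 probes, 26055 were named through RefSeq (GRCm38.p6); 23525 passed the background filter (all arrays of either group) and were tested with limma 3.58.1 (lmFit, eBayes) in R 4.3.3. The fit was tested on simulated arrays drawn independently of each other, so that test does not cover correlation between arrays. The probe with the highest mean stands for a gene.

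Each listed *Hox* gene is accounted for. Of the other lists (neighbours, noncoding RNAs, TALE cofactors, ParaHox and *Cdx* genes, retinoic acid signalling, Trithorax-type and Polycomb genes, fibroblast, pluripotency, germ-line, neural and mesoderm markers), called genes are named, except for 1 item that is not reported here; *Vim*, *Tagln*, *Hoxa11os* and the 6 undetected fibroblast markers were added, which exceeds the number of other genes planned. Members and lists were chosen with earlier results of these data known. *Kmt2a* was not analysed here.

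Probe deviations from group means correlated at 0.38 to 0.58 between arrays with equal replicate numbers and at -0.44 to 0.25 between the rest. The replicate block rests on this pairing, inferred from the values. Alternatives were normexp (on median spot signals in place of the planned mean ones), quantile normalization, the authors' log2 table, 2 other filters, slide or replicate block, an intensity trend, the one-way test of the legends, a 1.5-fold threshold, the mean of a gene's probes, single samples left out and, chosen after seeing the data, each slide alone, swaps within replicate numbers and signals raised to the background limit.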

Additional observations from a re-analysis of the deposited data

Results flagged for a closer look

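In 3 groups of 4 samples, of 77 examined, 1 sample stood far from the others. Chance gives about 1 in 20, or 3.85 groups, so the number is no more than chance gives. The measure is the gap to the nearest sample as a share of the range of the group. *Hoxc4* was lowest in control replicate 1, at -2.46 against a mean of -1.26 in the other controls (share 0.924). *Hoxa11* was lowest in control replicate 3, at -5.78 against -4.87, and was not well above background there (share 0.862). *Hoxb6* was lowest in *L3mbtl2*-KD replicate 2, at -2.93 against -1.91 (share 0.864).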

How the results depend on the processing

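Except on slide 1 alone, where nothing was called, *Hoxb13* and *Hoxc6* kept their calls wherever they were tested. *L3mbtl2* kept its call in the alternatives planned for it (log2 fold change -1.48 to -1.19). With the replicate block 358 genes were called higher and 469 lower, among them 1 and 4 *Hox* genes, *Hoxc4* being the added one; it changed no other *Hox* call. Normexp gave 194 genes higher and 159 lower in place of 340 and 438 (55% higher in place of 43.7%), and 1 *Hox* gene lower. Probes above background on all 8 arrays gave 290 genes lower and 1 *Hox* gene lower, *Hoxc5* and *Hoxc6* not being tested. Quantile normalization gave 2 *Hox* genes higher. The 1.5-fold threshold gave 700 genes higher and 1014 lower, with 3 and 5 *Hox* genes. Leaving out 1 sample gave 296 to 371 genes higher and 354 to 500 lower, and 1 to 2 *Hox* genes higher and 2 to 4 lower. The added ones were *Hoxa11* (4 samples), *Hoxd1* (*L3mbtl2*-KD replicate 4) and, lower, *Hoxc4* (control replicate 1). *Hoxd1* passed the filter there only because its low array was left out, and it was not called without a filter. With 1 sample left out, the median of the *Hox* genes lay between -0.469 and -0.200, and it was -0.150 without a filter. Slide 1 alone, with 2 arrays per group, gave 0 genes and 0 *Hox* genes in either direction by limma (363 higher and 448 lower at an unadjusted p under 0.05), and slide 2 alone 347 and 419, with 1 and 3 *Hox* genes. The 3 lower ones on slide 2 were *Hoxc4*, *Hoxc5* and *Hoxc6*, so *Hoxc9* lost its call there and *Hoxc4* gained one.

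Signs turned for 3 genes close to 0, and the cause was not tested. *Hoxa9* was at 0.083 with normexp, 0.074 with quantile normalization, 0.033 with the slide as a block, 0.184 with the replicate block, 0.460 on slide 2 alone and -0.259 to 0.184 with 1 sample left out. *Hoxc13* was at 0.055 with normexp, 0.124 with quantile normalization, 0.107 on slide 2 alone and -0.181 to 0.065 with 1 sample left out. *Hoxb3* was at 0.024 as the mean of its probes and -0.285 to 0.030 with 1 sample left out. Of 19 alternatives planned for single genes, the adjusted p was 0.05 or more in 10 for *Hoxa2*, in 8 for *Hoxa7* and in 6 for *Hoxc9*.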
